A study of Arabidopsis thaliana with 10 samples.

Results

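Mitochondrion-encoded transcripts of Arabidopsis thaliana roots were followed over 10 ATH1 arrays, a short-oligonucleotide array on which a probe set, a group of short probes, reads a transcript. A probe set was taken as a member where the platform annotation lists a single gene for it and that gene lies in the mitochondrial genome. The annotation lists 13356 genes singly for a probe set. For 8794 of the 22810 probe sets it lists no gene, so a gene without a listed probe set may still be on the array. The members were 23 probe sets for 16 genes, of 32 protein-coding genes with a symbol in the RefSeq mitochondrial genome. By symbol stem they were 15 nad probe sets for 8 genes (7 of them for nad1 and 2 for nad5), the 2 cox probe sets for cox1 and cox2, the 4 ccb probe sets for ccb203, ccb206, ccb382 and ccb452, the orf probe set for orfX, and matR, which has none of these stems. The annotation lists no atp or ribosomal protein gene of the mitochondrion singly for a probe set. A further 12 probe sets list a mitochondrial gene together with another gene and were not members. For 11 of them the other gene is a nuclear locus of chromosome 2, and they hold 2 atp, 6 ribosomal, 2 cox and cob, and 2 nad probe sets.

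The groups had 2 arrays each. KO -S and KO +S were the sdi1sdi2 double knockout, lines 1 and 4, at 15 µM and at 1500 µM sulfate. OX +S was the SDI1 overexpressor, lines 6 and 12, at 1500 µM sulfate. Col -S and Col +S were the wild type Columbia at 15 µM and at 1500 µM sulfate, arrays 1 and 2 of each. All plants grew for 10 days on agar plates of mineral medium with sucrose, with magnesium held equal by chloride salt in the low sulfate plates, and root tissue was taken. The promoter that drives SDI1 in the overexpressors and the insertion sites of the knockouts are not given in the sources used here. Each KO or OX group sets one plant line beside another, while for Col no label tells separate cultures from repeats, so p-values measure only the spread between these samples, which may in part be technical.

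The plant mitochondrial genome holds a small set of genes, among them subunits of the respiratory complexes, ribosomal proteins and parts of the machinery that attaches heme to c-type cytochromes. The other subunits of each complex are made from nuclear genes, so a complete complex needs both genomes. Several mitochondrial transcripts, those of nad1, nad2 and nad5 among them, are joined from separately transcribed pieces by trans-splicing, and matR, a maturase gene, lies inside an intron of nad1. In Columbia a large copy of the mitochondrial genome sits in the nuclear genome near the centromere of chromosome 2, which is where the nuclear partners of the 11 shared probe sets lie. Whether more mitochondrial RNA per cell or more mitochondria-rich cells would lie behind a higher level cannot be told apart in RNA of whole tissue.

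All levels are log2 values of the deposited signal, whose zero point is unknown. An array's background was set at the 0.95 quantile of 22 probe sets for Bacillus genes that plants do not have, and lay between -0.58 and 0.37 log2. Most mitochondrial probe sets stayed under it. Of the 23, 4 lay above background on all 10 arrays, those of nad4, cox1, ccb382 and orfX. Another 4 did so on some arrays: ccb452 on 9, cox2 on 2, ccb206 on 1 and nad9 on 1. The other 15 lay under it on every array, among them all 7 probe sets of nad1, both of nad5, and those of nad2, nad4L, nad6, nad7, ccb203 and matR. Above background on all 10 arrays were thus 17.4% of the mitochondrial probe sets, 73.9% of the 69 plastid-encoded ones, and 50.3% of all 22197 probe sets tested. A probe set under background gives no measured level of its transcript and does not show that the transcript is scarce. No difference of a single probe set is given where both groups lie under background. Medians over the 23 include such readings and describe readings, not sizes of change.

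Of the 12 shared probe sets, 4 lay above background on all 10 arrays. They list atp1 and atp9, subunits of the ATP synthase, each with a chromosome 2 locus, rps12, a ribosomal protein gene, likewise, and rps3 with rpl16, a pair of ribosomal protein genes of the mitochondrion. None of the 12 was called in any of the 6 comparisons described next (limma, adjusted p under 0.05). Of all probe sets, 0.0225% to 9.44% were called in these comparisons.

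**Figure D1:**
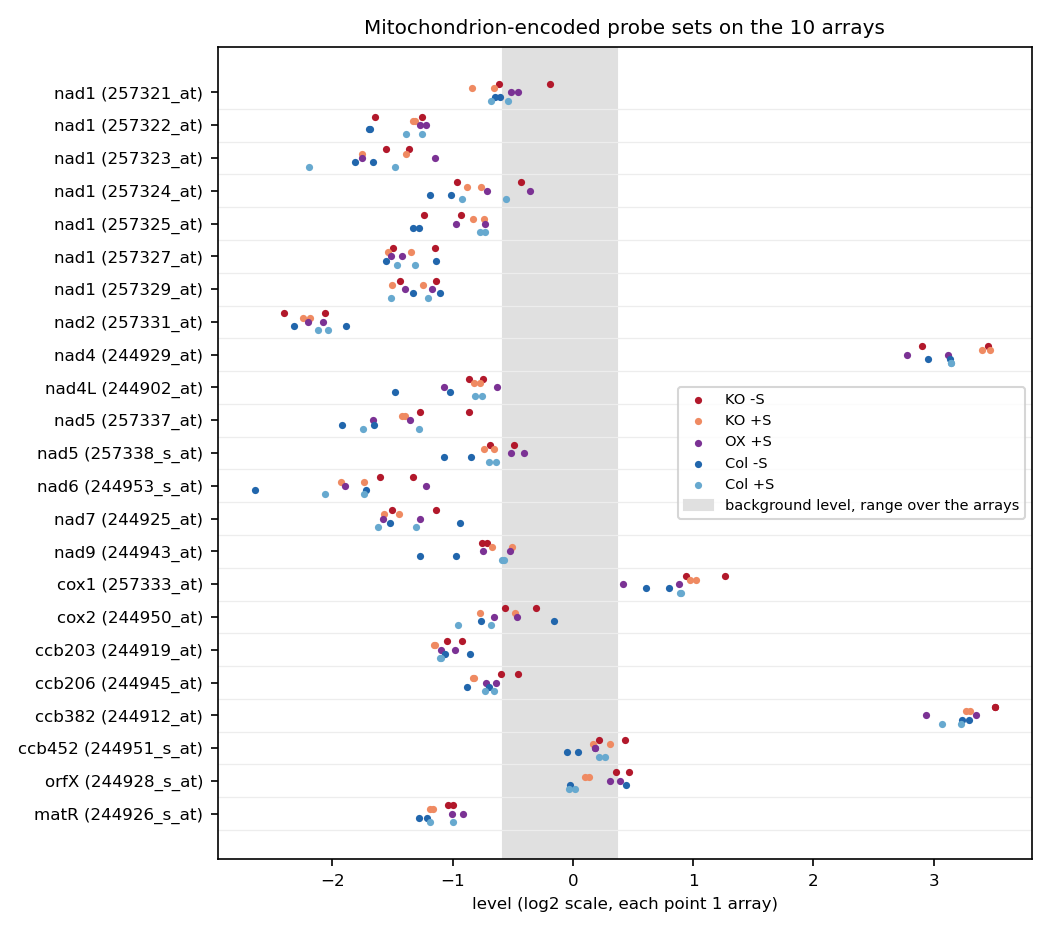
Log2 level (horizontal axis) of the 23 mitochondrial probe sets (rows, by gene class), with a point for each of the 10 arrays coloured by group and a grey band for the range of background over the arrays. All 10 points of nad4, cox1 and ccb382 lie to the right of the band, those of ccb452 and orfX lie in or beside it, and the others lie in it or to its left.

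Among the nad genes, whose products form the mitochondrial part of complex I, the NADH dehydrogenase, only nad4 was above background throughout. The probe set of nad4, a proton-pumping subunit of the membrane arm, read 3.45 and 2.90 in KO -S, 3.47 and 3.40 in KO +S, 2.78 and 3.12 in OX +S, 3.14 and 2.95 in Col -S, and 3.14 and 3.15 in Col +S (log2). Both KO +S lines and line 1 of KO -S gave its highest values, and line 4 of KO -S lay below line 1 and below every Col array. The ranges of KO +S and of Col +S did not overlap.

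The cox genes encode the catalytic core of cytochrome c oxidase, the last complex of the respiratory chain. The cox1 probe set read 0.94 and 1.27 in KO -S, 1.02 and 0.98 in KO +S, 0.42 and 0.88 in OX +S, 0.61 and 0.80 in Col -S, and 0.89 and 0.90 in Col +S (log2). Every KO array lay above every Col array for it, and line 6 of OX +S was its lowest array. For cox2 the values lay between -0.96 and -0.16 log2 and passed background in line 1 of KO -S and line 4 of KO +S only.

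The ccb genes, also known as ccm genes, take part in the maturation of c-type cytochromes. Of these, ccb382, or ccmFN1, encodes a piece of the heme lyase, the protein that joins heme to the apocytochrome. Its probe set read 3.51 and 3.51 in KO -S, 3.27 and 3.30 in KO +S, 2.94 and 3.35 in OX +S, 3.23 and 3.30 in Col -S, and 3.23 and 3.07 in Col +S (log2). Both KO -S lines lay above all other arrays. A second piece of the lyase, ccb452 or ccmFC, read 0.22 and 0.44 in KO -S, 0.17 and 0.31 in KO +S, 0.19 and 0.18 in OX +S, -0.050 and 0.043 in Col -S, and 0.26 and 0.22 in Col +S (log2) and was above background on every array except array 2 of Col -S. Both Col -S arrays gave its lowest values.

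The probe set of ccb206, or ccmB, a membrane subunit of a transporter-like complex of the same pathway, read -0.46 and -0.60 in KO -S, -0.83 and -0.82 in KO +S, -0.64 and -0.72 in OX +S, -0.88 and -0.70 in Col -S, and -0.66 and -0.73 in Col +S (log2) and passed background on 1 array. The highest values were again those of KO -S. The orfX gene, also called mttB, encodes a membrane protein related to the bacterial protein translocase subunit TatC. Its probe set read 0.36 and 0.47 in KO -S, 0.098 and 0.14 in KO +S, 0.39 and 0.31 in OX +S, -0.028 and 0.44 in Col -S, and 0.015 and -0.034 in Col +S (log2). The KO -S and OX +S arrays lay above the KO +S and Col +S arrays, and of the Col -S arrays one lay near the lowest and one near the highest value.

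Further probe sets under background on all 10 arrays are given in log2, by their range except for matR. Of the membrane-arm subunits, nad2 lay between -2.40 and -1.88, nad6 between -2.65 and -1.22, and nad4L between -1.48 and -0.63. For nad1, 257327_at lay between -1.55 and -1.14 and 257329_at between -1.51 and -1.10. The matrix-arm subunit nad7 lay between -1.62 and -0.94. For ccb203, or ccmFN2, a further piece of the heme lyase, the range was -1.16 to -0.86, the narrowest of the 23. The matR probe set read -1.04 and -1.0 in KO -S, -1.16 and -1.19 in KO +S, -0.91 and -1.01 in OX +S, -1.21 and -1.28 in Col -S, and -1.19 and -1.0 in Col +S. Line 6 of OX +S was its highest array and array 2 of Col -S its lowest.

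**Figure D2:**
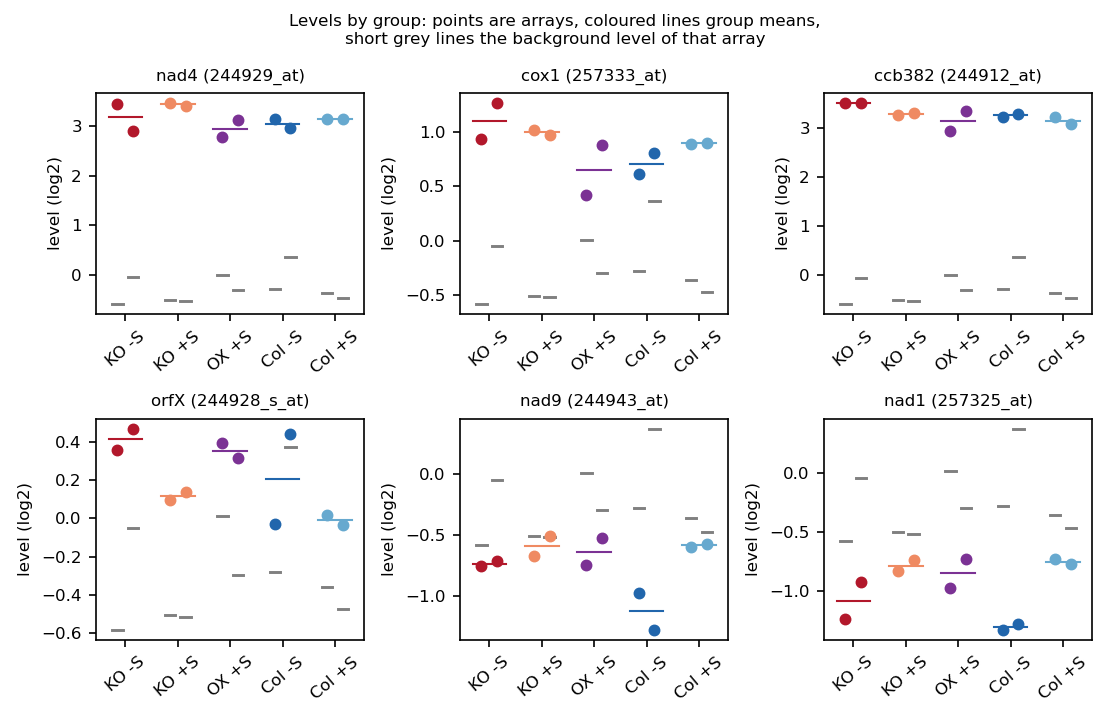
Log2 signal on each array for 6 mitochondrial probe sets, with groups along the horizontal axis, a point per array and a line at the group mean, and with each array's background as a short grey line. The probe sets of nad4, cox1, ccb382 and orfX lie above background on all 10 arrays, while the nad9 probe set passes it on 1 array and the nad1 probe set on none.

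Differences were tested with limma over all 22197 probe sets, with a mean for each group, and p-values were adjusted by Benjamini-Hochberg over all of them. A probe set was called at an adjusted p under 0.05. Beside this, a probe set was counted as not overlapping where both arrays of one group lay beyond both arrays of the other. The comparisons share arrays: with the interaction counted, Col -S enters 3 of the 6 and Col +S enters 4, so their values for one member are not independent.

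In the wild type at low sulfate, no mitochondrial transcript that was above background was called as changed, and the probe sets that were called, of nad1 and nad9, lay under it. Of the 23 probe sets, 2 were called in Col -S against Col +S, both lower, where 9.44% of all probe sets were called in either direction. The 2 called were 1 of the 7 probe sets of nad1 (257325_at), a membrane-arm subunit of complex I (adjusted p = 0.031 by limma), and that of nad9, a subunit of the matrix arm (adjusted p = 0.033 by limma). At an unadjusted p under 0.05 the count was 5, all lower, against 12.0% of all probe sets lower and 23.6% in either direction.

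The called nad1 probe set read -1.24 and -0.93 in KO -S, -0.83 and -0.74 in KO +S, -0.97 and -0.73 in OX +S, -1.33 and -1.28 in Col -S, and -0.73 and -0.77 in Col +S (log2). Both Col -S arrays lay below both Col +S arrays, and KO -S line 1 lay close to Col -S. The nad9 probe set read -0.75 and -0.71 in KO -S, -0.67 and -0.51 in KO +S, -0.75 and -0.52 in OX +S, -0.97 and -1.27 in Col -S, and -0.59 and -0.57 in Col +S (log2). Its Col -S arrays were the lowest of the 10, and it passed background only in KO +S line 4. In both probe sets all 4 Col arrays lay under background, so no size is given for either call. The nad1 call was lost without KO +S line 1 or line 4 (adjusted p = 0.056 by limma either way) and without any one of the 4 Col arrays, with p-values between 0.086 and 0.16. The nad9 call was lost without either line of KO -S or KO +S, array 2 of Col -S, or either array of Col +S, with p-values between 0.051 and 0.17. Fitted on the 4 Col arrays alone, the nad1 probe set gave an adjusted p of 0.059 by limma and nad9 one of 0.11. After quantile normalization nad9 was not called (adjusted p = 0.061 by limma) and a second nad1 probe set (257322_at) was (adjusted p = 0.048 by limma).

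The other 6 nad1 probe sets were not called in the fit of the deposited values. In 3 of the 7 the Col -S arrays lay below the Col +S arrays without overlap, the called one and 2 more, beside 24.8% of all probe sets. One of these (257322_at) read -1.65 and -1.26 in KO -S, -1.33 and -1.31 in KO +S, -1.27 and -1.22 in OX +S, -1.69 and -1.70 in Col -S, and -1.25 and -1.39 in Col +S (log2). The other (257324_at) read -1.18 and -1.01 in Col -S and -0.56 and -0.93 in Col +S (log2). These probe sets too lay under background on all 10 arrays.

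Over all 23 probe sets, 2 lay higher and 10 lower without overlap in Col -S against Col +S, beside 25.4% and 24.8% of all probe sets. The 10 included 7 of the 15 nad probe sets. The median difference of the 23 was -0.10 log2, beside 0.018 for all tested, and 8 of 23 were positive. Among the 4 above background throughout, nad4 differed by -0.10 ± 0.18 (SE, 95% interval -0.51 to 0.31, adjusted p = 0.8) and cox1 by -0.19 ± 0.17 (SE, 95% interval -0.57 to 0.19, adjusted p = 0.56) on the log2 scale. For ccb382 the difference was 0.11 ± 0.14 (SE, 95% interval -0.20 to 0.43, adjusted p = 0.68) and for orfX 0.21 ± 0.14 (SE, 95% interval -0.11 to 0.54, adjusted p = 0.42), both on the log2 scale. All 4 intervals include 0. Without array 2 of Col -S the orfX difference was -0.019 and that of nad4 -0.0087, and without array 1 that of nad4 was -0.19. Without array 1 of Col -S the cox1 difference was -0.093 and without array 2 it was -0.29. For ccb382 it was 0.19 without array 1 of Col +S and 0.037 without array 2. The 3 leaf markers measured summed to 4.44 to 4.53 log2 in Col -S and 6.50 to 7.23 in Col +S, and the 3 root markers to 16.6 to 17.0 in Col -S and 15.0 to 15.7 in Col +S. Their part in the mitochondrial readings was not tested.

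In the knockout, no mitochondrial probe set was called between low and full sulfate. The count was 0 of 23 in KO -S against KO +S by limma, where 6.42% of all probe sets were called, and 3 at an unadjusted p under 0.05 (2 higher, 1 lower), beside 18.7% of all. The ccb382 difference was 0.22 ± 0.14 (SE, 95% interval -0.087 to 0.53, adjusted p = 0.46), and that of orfX was 0.29 ± 0.14 (SE, 95% interval -0.033 to 0.62, adjusted p = 0.33), on the log2 scale. Both probe sets read higher in each KO -S line than in either KO +S line. The nad4 difference was -0.26 ± 0.18 (SE, 95% interval -0.67 to 0.16, adjusted p = 0.54) and the cox1 difference 0.10 ± 0.17 (SE, 95% interval -0.28 to 0.48, adjusted p = 0.83). For nad4 line 4 of KO -S lay below both KO +S arrays and line 1 between them, and without line 4 the difference was 0.018. For cox1 the KO -S lines lay on either side of the KO +S arrays.

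The smallest adjusted p-values of this comparison belonged to dim probe sets. That of ccb206, whose values are given above, had an adjusted p of 0.15 by limma. A nad1 probe set (257321_at) with values of -0.61 and -0.19 in KO -S, -0.84 and -0.65 in KO +S, -0.46 and -0.51 in OX +S, -0.65 and -0.61 in Col -S, and -0.68 and -0.54 in Col +S (log2) had one of 0.24 by limma. The nad1 probe set called in the wild type read lower in both KO -S lines than in both KO +S lines, with an adjusted p of 0.26 by limma. Without overlap 8 of 23 lay higher and 2 lower, beside 25% and 26.9% of all, and the median difference was 0.12 log2, beside 0.0003 for all tested.

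At full sulfate no mitochondrial probe set was called between the knockout and the wild type. In KO +S against Col +S, 0 of 23 probe sets were called by limma and 0 had an unadjusted p under 0.05, where 0.0225% and 5.56% of all probe sets did so. The median difference of the 23 was -0.015 log2, beside -0.021 for all tested. The 4 probe sets that did not overlap on the higher side were the same 4 that lay above background on all arrays, and 3 did not overlap on the lower side, beside 17.3% and 24.5% of all. The difference was 0.29 ± 0.18 (SE, 95% interval -0.12 to 0.71, adjusted p = 1) for nad4 and 0.14 ± 0.14 (SE, 95% interval -0.17 to 0.45, adjusted p = 1) for ccb382 on the log2 scale. It was 0.10 ± 0.17 (SE, 95% interval -0.28 to 0.48, adjusted p = 1) for cox1 and 0.13 ± 0.14 (SE, 95% interval -0.20 to 0.45, adjusted p = 1) for orfX. Every interval includes 0, and the upper bound for nad4, the widest of the 4, was 0.71 log2.

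At low sulfate most mitochondrial probe sets read higher in the knockout than in the wild type, though none passed the test and most lay under background. In KO -S against Col -S, 14 of 23 lay higher without overlap and 0 lower, beside 19.2% and 25.4% of all probe sets. They were cox1, ccb206, ccb382, ccb452, nad4L, nad6, nad9, both nad5 probe sets, 4 of the 7 nad1 probe sets (257322_at, 257323_at, 257324_at and 257325_at) and matR. By class these were 9 of 15 nad, 3 of 4 ccb and 1 of 2 cox probe sets. Of the 14, 9 lay under background on all 10 arrays. Another 3 (ccb206, ccb452 and nad9) passed it on some arrays, and 2 (cox1 and ccb382) on all. The median difference of the 23 was 0.24 log2, beside -0.041 for all tested, and 19 of 23 were positive, beside 42.5% of all. Called were 0 of 23 by limma, beside 2.85% of all. At an unadjusted p under 0.05 there were 8, all higher, beside 8.00% of all higher and 18.5% in either direction. The Col -S arrays here are those of the wild-type sulfate comparison.

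Of the 4 members above background throughout, cox1 stood highest above the wild type. It read 0.94 and 1.27 in KO -S and 0.61 and 0.80 in Col -S, a difference of 0.40 ± 0.17 (SE, 95% interval 0.017 to 0.78, adjusted p = 0.25) by limma on the log2 scale. The ccb382 probe set read 3.51 and 3.51 in KO -S and 3.23 and 3.30 in Col -S, a difference of 0.25 ± 0.14 (SE, 95% interval -0.065 to 0.56, adjusted p = 0.38). For nad4 it was 0.13 ± 0.18 (SE, 95% interval -0.28 to 0.55, adjusted p = 0.74) and for orfX 0.21 ± 0.14 (SE, 95% interval -0.12 to 0.53, adjusted p = 0.48), and both overlapped between the groups. The nad4 difference was -0.14 without line 1 of KO -S and 0.41 without line 4, and that of orfX was -0.026 without array 1 of Col -S and 0.44 without array 2. For cox1 it was 0.56 without line 1 of KO -S and 0.23 without line 4. The unadjusted interval of cox1 excludes 0, and after adjustment over all probe sets the difference is not called.

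The largest moderated statistics here were those of nad5 and ccb452. nad5 encodes another proton-pumping subunit of the complex I membrane arm, and its first probe set (257337_at) read -1.27 and -0.87 in KO -S, -1.42 and -1.40 in KO +S, -1.67 and -1.35 in OX +S, -1.65 and -1.92 in Col -S, and -1.75 and -1.28 in Col +S (log2), with an adjusted p of 0.1 by limma in KO -S against Col -S. Its second (257338_s_at) read -0.69 and -0.49 in KO -S, -0.74 and -0.66 in KO +S, -0.52 and -0.41 in OX +S, -1.07 and -0.84 in Col -S, and -0.70 and -0.64 in Col +S (log2), with an adjusted p of 0.15. Both lay under background on all 10 arrays, so no difference is given. The ccb452 probe set, above background on 3 of these 4 arrays, differed by 0.33 ± 0.11 (SE, 95% interval 0.087 to 0.58, adjusted p = 0.15) on the log2 scale.

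**Figure D3:**
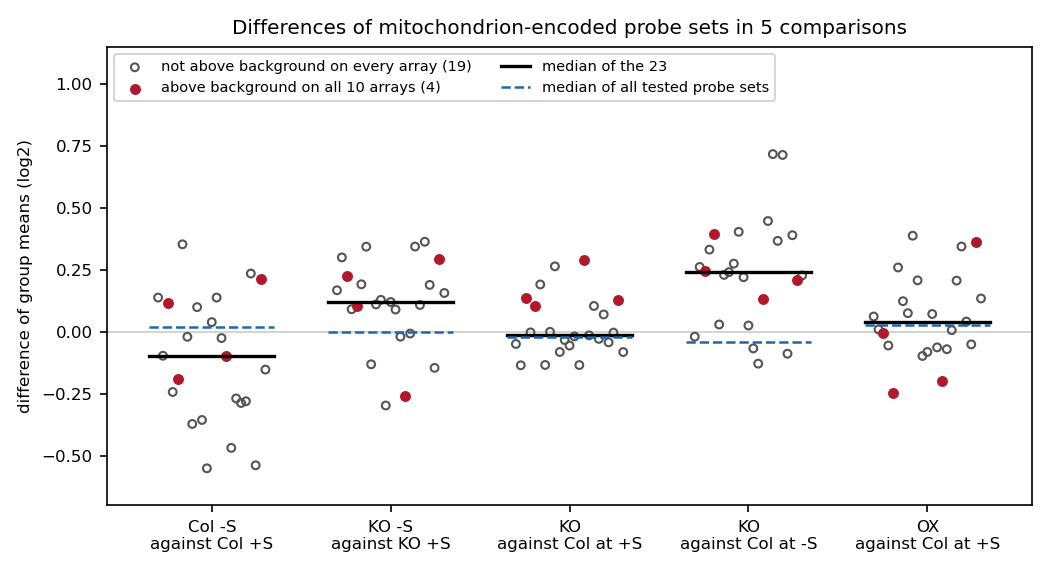
Log2 difference of each mitochondrial probe set (points, filled for the 4 above background on all 10 arrays and open for the other 19) in 5 comparisons, with the median of the 23 (solid line) and that of all 22197 probe sets tested (dashed line). Open points can stand for differences between readings under background. The median of the 23 is 0.24 in KO against Col at low sulfate and lies between -0.10 and 0.12 in the other 4 comparisons.

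The lines of KO -S did not read alike. Line 4 lay above line 1 for 20 of the 23 (87.0%), with a median gap of 0.26 log2, where 57.7% of all tested probe sets did so. In the other groups the count ran from 11 to 16 of 23 for the array with the higher number. Background differed too, at -0.58 in line 1 and -0.049 in line 4 of KO -S, against -0.28 in array 1 and 0.37 in array 2 of Col -S (log2). The count of 14 was 16 without line 1 of KO -S, 15 without line 4, 14 without array 1 of Col -S and 20 without array 2. With 1 array left on a side, 29.2% to 32.7% of all probe sets lay higher without overlap. Lower without overlap were 6 members without array 1 of Col -S, beside 46.4% of all probe sets, 1 without line 1 of KO -S (34.6% of all), 2 without line 4 (45.8%) and 0 without array 2 of Col -S (36.8%).

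Among dim probe sets over the whole array, more lay lower than higher without overlap in this comparison. Of the 6621 probe sets under background on all 10 arrays, 587 lay higher and 1619 lower without overlap in KO -S against Col -S. The 15 mitochondrial ones in that state had 9 higher and 0 lower. The 12 probe sets that share a mitochondrial gene with another locus had a median of 0.25 log2, with 5 higher, 0 lower and 0 called. Over all tested probe sets 19.2% lay higher, 25.4% lay lower and 2.85% were called. Of the 4 shared probe sets above background on all 10 arrays, 1 lay higher and 0 lower. Transcripts of the other organelle genome stood higher as well: 59 of 69 plastid probe sets lay higher and 2 lower without overlap, 9 were called, all higher, and their median difference was 0.52 log2. The 3 leaf markers measured in these roots, LHCB4.1, RCA and PSAE1, summed to 3.94 to 4.03 log2 in KO -S and 4.44 to 4.53 in Col -S, and the 3 root markers to 15.2 to 15.7 in KO -S and 16.6 to 17.0 in Col -S. The part of these differences in the mitochondrial readings was not tested.

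**Figure D4:**
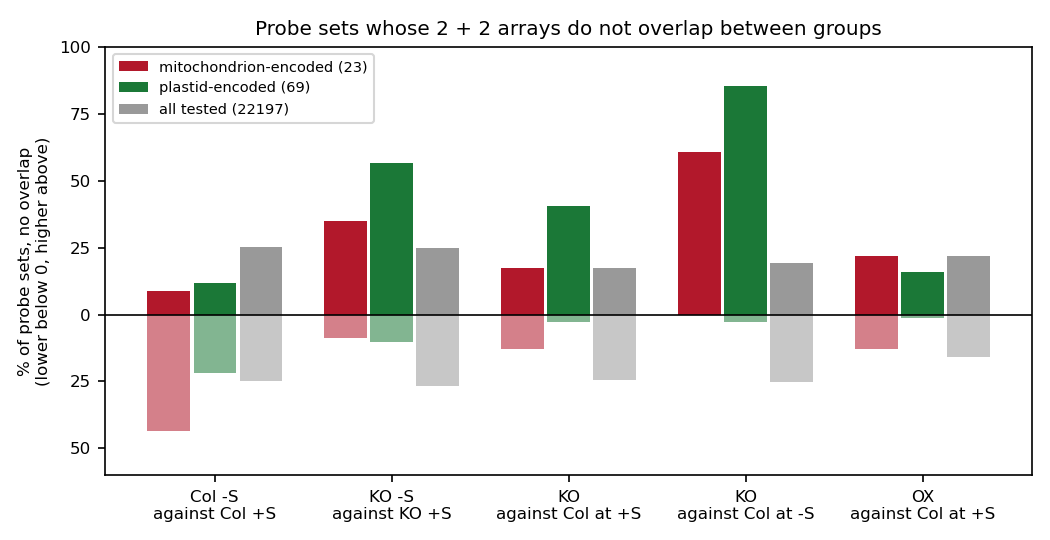
Percent of probe sets whose arrays lie higher (upper bars) or lower (lower bars) without overlap in each of 5 comparisons, for the 23 mitochondrial, the 69 plastid and all 22197 tested probe sets. At low sulfate 14 of 23 mitochondrial and 59 of 69 plastid probe sets lie higher in KO than in Col, beside 19.2% of all. Of these 14, 9 lie under background on all 10 arrays.

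Overexpression of SDI1 left no called mitochondrial probe set. In OX +S against Col +S the count was 0 of 23 by limma and 1 at an unadjusted p under 0.05, where 0.649% and 9.01% of all probe sets passed. That 1 was orfX, at 0.39 and 0.31 in OX +S and 0.015 and -0.034 in Col +S, a difference of 0.36 ± 0.14 (SE, 95% interval 0.035 to 0.69, adjusted p = 0.48) on the log2 scale. Both cox1 and nad4 read lower in each OX line than in either Col +S array, with differences of -0.25 ± 0.17 (SE, 95% interval -0.63 to 0.13, adjusted p = 0.76) and -0.20 ± 0.18 (SE, 95% interval -0.61 to 0.22, adjusted p = 0.85). Without line 6 the cox1 difference was -0.014 and that of nad4 was -0.026. The ccb382 difference was -0.0060 ± 0.14 (SE, 95% interval -0.32 to 0.30, adjusted p = 1).

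The other members with the largest moderated statistics in this comparison were dim. They were the second nad5 probe set (adjusted p = 0.69 by limma) and a nad1 probe set (257323_at) that read -1.56 and -1.37 in KO -S, -1.39 and -1.76 in KO +S, -1.75 and -1.14 in OX +S, -1.81 and -1.66 in Col -S, and -2.20 and -1.48 in Col +S (log2), with an adjusted p of 0.76. Over the 23, 5 lay higher and 3 lower without overlap, beside 21.7% and 15.9% of all, with a median difference of 0.041 log2, beside 0.026 for all tested.

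Whether the low sulfate response differed between knockout and wild type was tested as an interaction, the KO difference minus the Col difference. It was called for 0 of 23 by limma, beside 0.748% of all, and 2 had an unadjusted p under 0.05, beside 9.85%. The median of the 23 interaction terms was 0.25 log2, beside -0.015 for all tested, and 19 were positive, beside 47.5% of all. Among the members above background throughout the terms were 0.29 ± 0.24 for cox1 and 0.11 ± 0.19 for ccb382 (log2 ± SE). They were -0.16 ± 0.26 for nad4 and 0.080 ± 0.20 for orfX. The adjusted p of these 4 ran from 0.75 to 0.95 by limma. The lowest among all 23 was that of ccb206, at 0.41.

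Nuclear genes of mitochondrial function were read from the same fit through 7 lists with 103 genes. Of these, 33 are listed singly for a probe set, 34 probe sets in all. The others may still be on the array, as 8794 probe sets have no listed gene. Measured were 6 of 15 complex I subunits, 4 of 9 genes of complex II, 10 of 17 of complexes III and IV with cytochrome c, and 2 of 14 ATP synthase subunits and carriers. Of the other lists, 5 of 12 alternative dehydrogenases and oxidases, 5 of 21 RNA factors and 1 of 15 stress and membrane proteins were measured. In Col -S against Col +S 2 of the 34 were called, beside 9.44% of all probe sets (4.44% higher). In KO -S against KO +S it was 3, beside 6.42% (2.92% higher), and in KO -S against Col -S 1, beside 2.85% (1.73% higher). All of these calls were higher. None was called in KO +S against Col +S, in OX +S against Col +S or for the interaction, beside 0.0225%, 0.649% and 0.748% of all. The median difference of the 34 in KO -S against Col -S was -0.11 log2, with 11 of 34 positive, where the mitochondrial probe sets had 0.24 and 19 of 23. The 6 nuclear-encoded complex I subunits measured were all negative there, with a median of -0.19, beside 57.5% of all probe sets that were negative, and none was called. Of the 5 mitochondrial transcription and RNA processing factors 4 were positive, with a median of 0.28, and none was called. Among them MTPNPASE (AT5G14580), a mitochondrial polynucleotide phosphorylase, read -0.048 and 0.16 in KO -S and -0.41 and -0.41 in Col -S (adjusted p = 0.068 by limma, above background on 5 of the 10 arrays).

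Of the called genes, NDB2, CYTC-2 and SDH1-2 act in electron transport. NDB2 (AT4G05020), an alternative NAD(P)H dehydrogenase on the outer face of the inner membrane, rose at low sulfate in both genotypes. It read 3.67 and 3.70 in Col -S and 2.76 and 2.65 in Col +S, a difference of 0.98 ± 0.10 (SE, adjusted p = 0.00062 by limma, log2). In KO -S it read 3.31 and 3.48 and in KO +S 2.75 and 2.73, a difference of 0.65 ± 0.10 (SE, adjusted p = 0.0061 by limma, log2). The knockout call was lost without line 4 of KO -S (adjusted p = 0.055 by limma) and without line 1 of KO +S (adjusted p = 0.058 by limma). CYTC-2 (AT4G10040), a gene for cytochrome c, rose in the wild type. It read 3.12 and 2.93 in Col -S and 2.04 and 2.30 in Col +S, a difference of 0.85 ± 0.13 (SE, adjusted p = 0.0044 by limma, log2). In KO -S against KO +S its difference was 0.52 ± 0.13 (SE, adjusted p = 0.051 by limma, log2). Another cytochrome c gene, CYTC-1 (AT1G22840), was brighter, at 6.83 and 7.03 in Col -S and 6.44 and 6.56 in Col +S (log2). CYTC-1 was not called there, with a difference of 0.43 ± 0.12 (SE, adjusted p = 0.059 by limma, log2). In KO -S against KO +S the CYTC-1 difference was 0.062 ± 0.12 (SE, adjusted p = 0.86 by limma, log2).

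SDH1-2 (AT2G18450), a flavoprotein subunit of complex II, was called in KO -S, at 1.28 and 1.59, against 0.90 and 0.94 in KO +S, a difference of 0.52 ± 0.12 (SE, adjusted p = 0.039 by limma, log2). That call was lost without line 4 of KO -S, either line of KO +S, either line of OX +S or either array of Col +S, with adjusted p-values from 0.059 to 0.24 by limma, and with only the arrays compared (adjusted p = 0.11 by limma). UPOX (AT2G21640), a transcript known to respond to mitochondrial stress, was called higher in KO -S against KO +S (adjusted p = 0.001 by limma) and against Col -S (adjusted p = 0.0025 by limma, 0.06 with only the arrays compared). It read -0.53 and -0.61 in KO -S, -1.37 and -1.51 in KO +S, and -1.37 and -1.42 in Col -S (log2), and passed background on 1 array, so no size is given.

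For the series as a whole, arrays of a group correlated at 0.9904 to 0.9959 over all tested probe sets. Of the targeted genes, SDI1 had no listed probe set. SDI2 (AT1G04770) read 0.31 and -1.52 in KO -S, -0.35 and -1.16 in KO +S, 1.52 and 1.86 in OX +S, 5.65 and 5.47 in Col -S, and 1.83 and 1.57 in Col +S (log2), so each KO array lay below each Col array. In KO, SDI2 lay above background on both arrays of line 1 and under it on both arrays of line 4. The root markers PYK10, EXPA7 and EXPA18 lay above background on all 10 arrays. Of the 12 leaf markers 3 were listed singly for a probe set, LHCB4.1 and RCA above background on all 10 arrays and PSAE1 on 9.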

How the data were processed

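Per the labels, ATH1 arrays were hybridised with cDNA made from root RNA, 10 in all. The values deposited by the authors are log10 signals per probe set; their background correction and normalization are not given in the sources used here. The log base was read from the spiked controls bioB to cre, which spanned 2.13 units, against 1.82 nominal on a log10 and 6.06 on a log2 scale. Values were multiplied by the log2 of 10, with no further normalization. Of 22810 probe sets, 554 without values and 64 controls (5 are both) were left out. Members and gene lists were chosen with earlier results of these data known. Mitochondrial genes were matched by symbol or synonym to RefSeq TAIR10.1. The model, limma 3.58.1 in R 4.3.3 (lmFit, eBayes), had 5 residual and 3.81 prior degrees of freedom over 6 comparisons, and was tested on simulated data. Values on all 10 arrays are printed for called members, the brightest of each class and the leading members of each comparison by moderated t. KO arrays of the same line are paired by it (r = 0.072 of their deviations); Col arrays share only a number (r = -0.141). Precision is limited by 2 arrays a group. Alternatives were 9 settings and leaving out each of 10 arrays.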

Additional observations from a re-analysis of the deposited data

Results flagged for a closer look

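The matR probe set was the 1 member whose groups moved in opposite ways without overlap. It read -1.04 and -1.0 in KO -S against -1.16 and -1.19 in KO +S, so both KO lines lay higher at low sulfate, and -1.21 and -1.28 in Col -S against -1.19 and -1.0 in Col +S, so both Col arrays lay lower (log2). The probe set lay under background on all 10 arrays, so the fitted interaction term of 0.31 log2 describes readings and is no size of change. It had an adjusted p of 0.53 by limma, so the difference between the genotypes was not called. Groups of 2 arrays allow no test for a single array that stands apart.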

How the results depend on the processing

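The number of mitochondrial probe sets called stayed at 0 in the 5 other comparisons under all 9 settings and all 10 omissions. In Col -S against Col +S the count of 2 was 1 without the dimmest probe sets by mean level (11 members tested), 1 without probe sets under background on all arrays (8 tested), 1 with 1 probe set per gene (16 tested), 0 with only the arrays compared and 0 with a replicate block for paired lines and numbers, and 0 to 2 over the omissions. The median difference over members above background on all 10 arrays, a setting chosen after seeing the data, as were those for the counts without overlap, was 0.0072 log2 in Col -S against Col +S, 0.13 in KO +S against Col +S, -0.10 in OX +S against Col +S and 0.095 for the interaction. Without probe sets under background it was 0.12 in KO +S against Col +S. Over the omissions the median ran from 0.0062 to 0.22 in KO -S against KO +S, 0.18 to 0.37 in KO -S against Col -S, 0.12 to 0.33 for the interaction, -0.14 to -0.068 in Col -S against Col +S, -0.021 to 0.013 in KO +S against Col +S and 0.0059 to 0.097 in OX +S against Col +S. No called value changed sign, and the replicate block ended both calls (adjusted p = 0.054 for nad1 and 0.067 for nad9 by limma) and that of SDH1-2 (adjusted p = 0.056 by limma). With only the arrays compared, SDH1-2 had an adjusted p of 0.11 by limma. After quantile normalization the 2 called were nad1 probe sets (257325_at and 257322_at), and nad9 had an adjusted p of 0.061 by limma. The causes were not tested. With 15 of 23 probe sets under background throughout, most members gave no measured level, which does not show that their transcripts are scarce.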
